A study of Mus musculus with 6 samples.

Results

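The genes described here are the protein-coding neighbours of Il17a, the gene deleted in the knockout, on mouse chromosome 1. The rule that chose them uses position and annotation and takes every gene with at least 1 protein-coding transcript whose rows lie between 10.7 and 30.7 Mb on chromosome 1 (GRCm38), about 10 Mb to each side of the start of Il17a at 20730905. Il17a itself, Il17f and Rpl7 were left out. The rule gave 66 of the 38483 genes in the table. No measured value entered it, but it was chosen with earlier results of these data known. Of the 66 genes, 28 had enough counts to be tested between genotypes and 38 did not. Mcm3, given as the marker of the group, lies 72 kb from Il17a and passed the count filter.

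The knockout group was 3 RNA libraries from IL-17A-/- mice, and the wild-type group was 3 libraries from IL-17A+/+ mice. Both groups were splenic CD4+CD62L+ T cells of the B10.RIII strain, a selection that enriches naive helper T cells. Both were cultured for 3 days toward Th17 cells, the helper T cells that secrete IL-17A, with 1 ng/ml TGF-β, 10 ng/ml each of IL-23 and IL-6, and 10 µg/ml of antibodies to each of IL-4 and IFN-γ. The strain in which the Il17a allele was made, the number of backcrosses and the sex of the mice are not given in the sources used. The series title asks how IL-17A limits Th17 cells through IL-24; the comparison below asks only what the genes around the deleted gene did.

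Genes that lie close to a targeted gene are inherited with it. When an allele made in one strain is bred onto another, flanking DNA of the first strain stays with the allele, and a genotype difference near the targeted gene can then come from the deletion or from the flanking DNA. In these data both cannot be told apart. The neighbours of Il17a share a stretch of chromosome and not a pathway: Mcm3 is a subunit of the MCM helicase that unwinds DNA at replication origins, Tram1 and Tram2 serve protein entry into the endoplasmic reticulum, Tceb1 (now Eloc) is the elongin C adaptor of ubiquitin ligases, and Pkhd1 is the gene of fibrocystin, a protein of kidney and bile duct cilia.

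The sequence that matters most to the comparison is that of Gm10222, a 294-base single transcript on the minus strand at chr1:24612407-24612700 (GRCm38). The deposited table lists it as protein-coding over 297 bases from 24612404 to 24612700, and the GENCODE M21 annotation calls it an unprocessed pseudogene. It is shown because all 294 of its bases were identical to mt-Nd4l, a subunit gene of respiratory complex I on the mitochondrial genome, with 0 mismatches. Capitals would mark mismatches, and there are none.
Gm10222: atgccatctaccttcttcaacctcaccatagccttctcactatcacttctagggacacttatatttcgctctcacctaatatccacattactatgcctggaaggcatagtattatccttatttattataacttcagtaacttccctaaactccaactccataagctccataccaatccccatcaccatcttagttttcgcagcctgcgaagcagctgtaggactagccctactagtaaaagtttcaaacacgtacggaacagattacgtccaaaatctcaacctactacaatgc
The best local alignment of Gm10222 to any other mitochondrial transcript held at most 16 identical bases. Of the 28 tested neighbours, Gm10222 was the only one whose whole length was matched at 95% identity or more by another gene. The share so matched was 54.5% for Smap1, 37.0% for B3gat2, 30.8% for Msc, 16.4% for Sdhaf4, 11.6% for Ube2w, 11.2% for Tceb1 and at most 4.9% for the others.

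The promoter of Mcm3 is shown because Mcm3 is the marker of the group, and that of Sdhaf4 because its levels separated the genotypes without a copied sequence over its length. Both are RefSeq windows of 300 bases around the gene start, on the minus strand of GRCm38.p6, at chr1:20820263-20820562 and chr1:24005591-24005890. Capitals mark matches, on either strand, to the motifs searched. The E2F motifs were TTTGGCGC and TTTCCCGC. The GC box was searched as GGGCGG, the CCAAT box by its name, and the TATA box by the letters TATAAA.
Mcm3: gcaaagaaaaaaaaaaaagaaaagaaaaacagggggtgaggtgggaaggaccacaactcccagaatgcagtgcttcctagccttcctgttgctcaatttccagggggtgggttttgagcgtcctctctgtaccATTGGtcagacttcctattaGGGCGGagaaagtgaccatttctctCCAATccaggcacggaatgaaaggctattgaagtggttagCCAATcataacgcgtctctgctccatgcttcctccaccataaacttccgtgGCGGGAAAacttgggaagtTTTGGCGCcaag
Sdhaf4: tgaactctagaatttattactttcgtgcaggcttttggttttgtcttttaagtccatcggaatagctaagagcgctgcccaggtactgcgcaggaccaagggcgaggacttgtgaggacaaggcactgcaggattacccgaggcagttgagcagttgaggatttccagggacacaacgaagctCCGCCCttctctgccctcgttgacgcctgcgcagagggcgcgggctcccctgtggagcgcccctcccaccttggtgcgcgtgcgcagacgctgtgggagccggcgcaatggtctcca
Mcm3 held both E2F motifs, at bases 289 and 270 of the window, the second as its reverse complement, along with 3 CCAAT matches and 1 GC box. The first E2F motif occurred in 0.5% and the second in 1.1% of the 32851 promoters of the table, the CCAAT box in 37.4%, the GC box in 35.7% and the TATA box in 13.6%. Sdhaf4 held a single GC box, on the other strand, at base 184. Of the 10 tested neighbours with a promoter in the table, 1 held the first E2F motif and 1 the second (Mcm3 in both cases), 4 a CCAAT box, 7 a GC box and 1 a TATA box. A match is a run of letters and not a shown binding site.

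Values below are CPM, library-size-scaled counts after TMM normalization, in libraries of 47335507 to 49743505 estimated counts. Il17a was at 1.11, 0 and 0.0202 CPM in the knockout libraries, against 160.5, 211.0 and 107.8 CPM in the wild-type libraries, so the genotype labels held. Libraries of the same replicate number resembled each other across genotypes, and the numbers were taken to pair them. The listed helper T cell markers summed to 2694, 2917 and 2385 CPM in knockout and 3130, 2674 and 2180 CPM in wild-type. The summed markers of other cells were higher in the knockout library of every number, with 8 of 8 B cell, 2 of 2 CD8 T cell, 5 of 5 NK cell and 5 of 6 tested myeloid genes at a log2 change above 0 in edgeR. Gene by gene, 7 of the B cell, 2 of the CD8 T cell, 3 of the NK cell and 4 of the myeloid markers were higher in knockout in all 3 numbers. The B cell markers summed to 757.2, 460.5 and 333.8 CPM in knockout and 353.7, 206.7 and 149.0 CPM in wild-type, the CD8 T cell markers to 657.7, 114.2 and 112.0 CPM in knockout and 422.6, 92.51 and 71.24 CPM in wild-type, the NK cell markers to 679.2, 185.3 and 187.7 CPM in knockout and 372.4, 150.2 and 93.65 CPM in wild-type, and the myeloid markers to 90.74, 192.4 and 27.71 CPM in knockout and 54.16, 106.7 and 15.16 CPM in wild-type. Xist, expressed from the inactive X of females, was at 2.579, 0 and 626.3 CPM in knockout and 566.5, 622.1 and 663.3 CPM in wild-type. The Y-linked Ddx3y was at 44.43, 37.97 and 0 CPM in knockout and 0.4515, 0 and 0 CPM in wild-type, so sex-linked RNA differed between the genotypes in the numbers 1 and 2 and not in 3. In bulk RNA, fewer cells of a type and less RNA per cell cannot be told apart. The part of these differences in the values below was not tested.

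No neighbour of Il17a passed the test in the edgeR fit without a block. The count was 0 of 28 at an adjusted p under 0.05, in a table where 0% of the 15121 genes passed. The deleted Il17a did not pass it either, at a log2 change of -8.7 (unadjusted p 0.000299, adjusted p 0.9999). A gene that did not pass this fit is therefore not shown to be unchanged. With the block, the adjusted p of Il17a was 0.217 in edgeR and 4.44e-06 in DESeq2. At an unadjusted p under 0.05 the same edgeR fit gave 3 of 28 neighbours (Gm10222, Sdhaf4 and Pkhd1, all higher in knockout), beside 1.67% of all genes, or 0.813% counting only those higher in knockout. With the replicate number as a block, edgeR again called none, with 3 neighbours at an unadjusted p under 0.05 beside 9.73% of all genes. Limma-voom called 0% of all genes and none of the neighbours; it put 2 neighbours at an unadjusted p under 0.05 without the block, beside 1.83% of all genes, and 4 with it, beside 10.9%. DESeq2 without the block called none of the neighbours, beside 0.086% of all genes. DESeq2 with the block called 1 neighbour, Gm10222, as higher in knockout, beside 2.52% of all genes called and 1.02% called in that direction, and gave no adjusted p for Pkhd1 and Pi15.

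In 5 of the 28 tested neighbours every knockout library lay above every wild-type library: Stau2, Ube2w, Pkhd1, Sdhaf4 and Gm10222. Stau2 is among them by the last digit only, at 1.622 CPM in its lowest knockout library and 1.621 CPM in its highest wild-type library. The 5 genes are 17.9% of the neighbours, beside 3.01% of all genes tested. Without Gm10222, which shares its sequence with mt-Nd4l, they are 4 of 27, or 14.8%. Per kb of transcript, Stau2 and Ube2w overlapped between genotypes. No neighbour had a lower, non-overlapping range in knockout, beside 3.13% of all genes. On the rest of chromosome 1, 25 of 712 tested protein-coding genes lay higher without overlap and 26 lower. The log2 change was above 0 in 20 of 28 neighbours, or 71.4%, beside 52.4% of all genes and 59.8% of the rest of chromosome 1. The median log2 change was 0.14 over the neighbours, 0.04 over the rest of chromosome 1 and 0.01 over all genes. The neighbours ran from -0.50 (Prex2) to 2.12 (Pkhd1). Of the 12 neighbours averaging at least 10 CPM, 7 were above 0, with a median of 0.03. Of the 16 under 10 CPM, 13 were above 0, with a median of 0.2. The median mean CPM was 7.42 over the neighbours, 22.3 over the rest of chromosome 1 and 16.9 over all genes. The part of level in these values was not tested.

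By distance, the band within 2 Mb of Il17a held 15 neighbours, of which 7 were tested, with 6 of these above 0 and a median log2 change of 0.25. The band from 2 to 5 Mb held 31 neighbours and 15 tested, with 11 above 0, a median of 0.13 and 4 of the 5 non-overlapping genes. The band from 5 to 10 Mb held 20 neighbours and 6 tested, with 3 above 0, a median of -0.01 and no gene without overlap. The 15 tested genes at lower coordinates had a median of 0.01 and the 13 at higher coordinates a median of 0.25. On the higher side the farthest tested gene, Lmbrd1, lies 3.95 Mb from Il17a. The bands also differed in level. The median mean CPM of their tested genes was 4.84 within 2 Mb, 9.23 from 2 to 5 Mb and highest from 5 to 10 Mb. The part of level in the medians by distance was not tested, and the bands were not tested against each other.

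**Figure D1:**
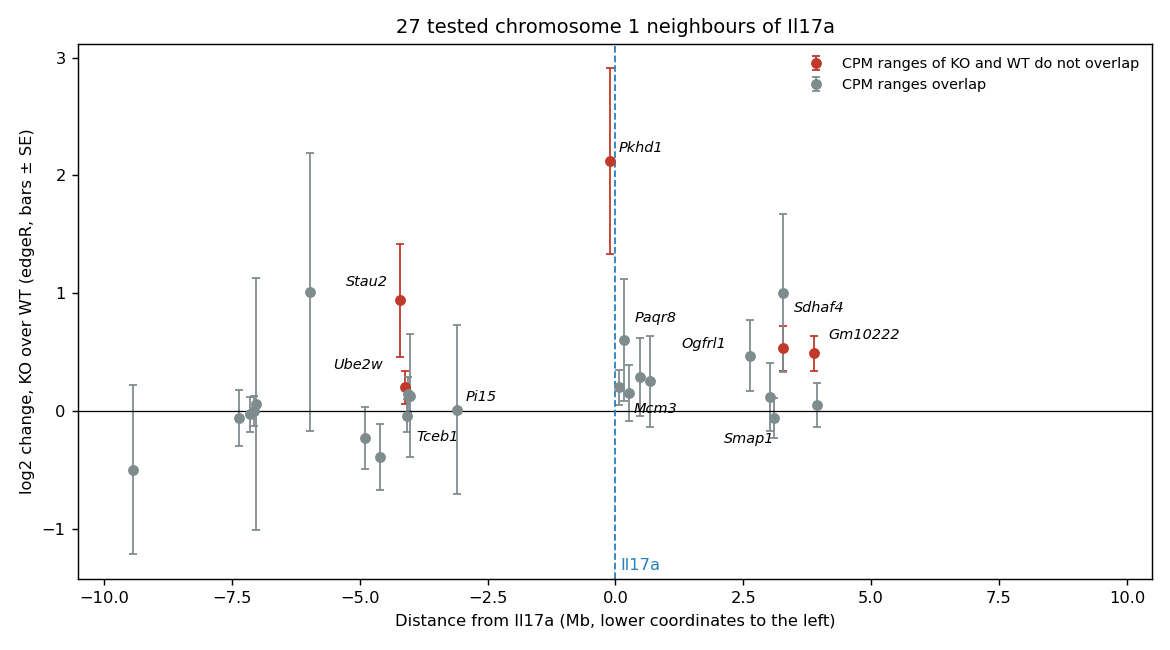
Log2 change of knockout over wild-type (edgeR, bars ± SE) for 27 of the tested neighbours against distance from Il17a in Mb, with lower coordinates to the left. The 5 red points, all above 0, are the genes whose CPM ranges did not overlap between genotypes, and Pkhd1, next to Il17a, is the highest at 2.12.

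The tested neighbours nearest to Il17a were Pkhd1 on the lower side and Mcm3 and Paqr8 on the higher side. Il17f, which the rule left out, lies nearer, at 46 kb on the higher side. It was higher in knockout without overlap, at a log2 change of 1.56 in edgeR (adjusted p 0.9999) and 1.43 in DESeq2 with the block (adjusted p 0.0433). Pkhd1 (ENSMUSG00000043760, 20057779 to 20618064), 113 kb away, was at 1.02, 0.225 and 0.263 CPM in knockout and 0.103, 0.113 and 0.125 CPM in wild-type. These are 52, 11 and 13 counts in knockout against 5, 5 and 6 counts in wild-type. Every knockout library lay above every wild-type library, and knockout 1 stood far above the other two. Knockout 1 also had the highest summed CD8 T cell, NK cell and B cell markers of all 6 libraries, and their part in this value was not tested. Its log2 change was 2.12 (SE 0.79), and edgeR gave an unadjusted p of 0.0324, adjusted to 0.9999. Without knockout 1 the edgeR log2 change was 1.08. By its mean per length over all 6 libraries Pkhd1 was the lowest of the tested neighbours, at 0.0389 ± 0.035 CPM per kb in knockout and 0.0087 ± 0.000863 CPM per kb in wild-type (SD, n = 3 each).

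Mcm3 (ENSMUSG00000041859, 20802974 to 20820278) was at 157.5, 120.5 and 155.0 CPM in knockout and 120.8, 134.0 and 123.3 CPM in wild-type. The knockout libraries 1 and 3 lay above all wild-type libraries and knockout 2 just below the lowest of them, so the groups overlapped. The knockout libraries averaged 144 ± 20.7 CPM and the wild-type libraries 126 ± 7.05 CPM (SD, n = 3 each). Knockout over wild-type, the log2 change was 0.20 (SE 0.15, edgeR adjusted p 0.9999; DESeq2 with the block, adjusted p 0.802), and the log2 ratios within the numbers were 0.38, -0.15 and 0.33. Leaving out pair 2 moved it to 0.36 with the block in edgeR, and the difference still did not pass (edgeR adjusted p 0.415).

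The other MCM subunits and origin factors split the knockout libraries as Mcm3 did. Summed over the 20 listed genes they were at 1194, 965.4 and 1227 CPM in knockout and 992, 1112 and 1099 CPM in wild-type. The knockout libraries 1 and 3 again lay above, and knockout 2 below, all wild-type libraries. The ratio of the same-numbered libraries was above 0 on the log2 scale in 18, 1 and 17 of the 20 genes for the numbers 1, 2 and 3, with medians of 0.29, -0.22 and 0.22. The edgeR log2 change was above 0 in 17 of 20 genes with a median of 0.09, beside 0.01 over all genes, and reached at most 0.29, in Cdc45 and Mcm10. None of the 20 passed in edgeR with or without the block, in limma-voom or in DESeq2, and none had an unadjusted p under 0.05 in either edgeR fit.

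Paqr8 (ENSMUSG00000025931, 20890622 to 20938755), a membrane progestin receptor 160 kb from Il17a, was at 7.68, 19.2 and 31.1 CPM in knockout and 8.52, 11.2 and 18.5 CPM in wild-type. Libraries of number 1 were lowest and those of number 3 highest in both genotypes, and the groups overlapped. The log2 change was 0.60 (SE 0.52, edgeR adjusted p 0.9999), the highest after Pkhd1 among the tested neighbours within 2 Mb. The log2 ratios within the numbers were -0.14, 0.76 and 0.73, and leaving out single libraries moved the edgeR value between 0.06 and 0.97. Also within 2 Mb, Tram2 had a log2 change of 0.15 (SE 0.24), with Tmem14a at 0.29 (SE 0.33) and the potassium channel gene Kcnq5 at 0.25 (SE 0.39). All 3 overlapped between genotypes.

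**Figure D2:**
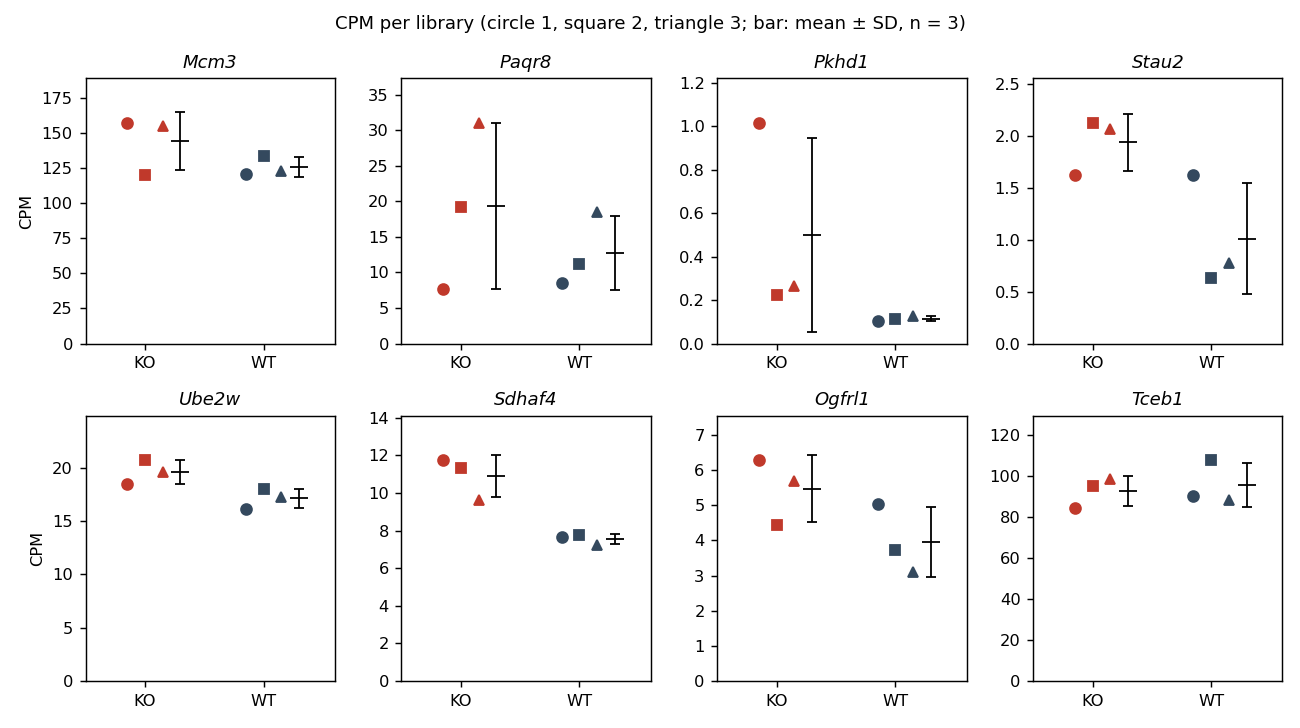
CPM in each library for 8 neighbours (circle, square and triangle are replicate numbers 1, 2 and 3; bar and whiskers are the mean ± SD, n = 3), knockout left of wild-type, axes from 0. The ranges of Pkhd1, Ube2w and Sdhaf4 are apart, those of Stau2 touch at about 1.62 CPM, and Mcm3, Paqr8, Ogfrl1 and Tceb1 overlap.

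Gm10222 gave the single call, and per kb it was the neighbour with the highest level. It was at 172, 168 and 142 CPM in knockout and 121, 124 and 97.5 CPM in wild-type. Every knockout library lay above every wild-type library, and the log2 ratios within the numbers were 0.51, 0.43 and 0.55. In edgeR the log2 change was 0.49 (SE 0.15, unadjusted p 0.0149, adjusted p 0.9999), 0.50 in edgeR with the block (adjusted p 0.351), and 0.49 in DESeq2 with the block (SE 0.10, adjusted p 0.000548). In DESeq2 with the block the adjusted p was 0.118 without pair 1, 0.0281 without pair 2 and 0.493 without pair 3.

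The mitochondrial gene of the same sequence went the other way. mt-Nd4l was at 11.9, 12.0 and 24.5 CPM in knockout and 77.4, 56.8 and 42.0 CPM in wild-type, without overlap. It fell in knockout in DESeq2 with the block (log2 change -1.93, SE 0.32, adjusted p 7.19e-07) and without it (adjusted p 0.00154). In edgeR its log2 change was -1.87 (SE 0.36, unadjusted p 0.00135, adjusted p 0.9999). A read inside the 294 shared bases carries nothing that assigns it to one of the 2 genes, so how the counts were divided rests on the counting program.

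Summed over both genes, the counts did not differ beyond the spread of the libraries. The sum was 183.6, 179.5 and 166.9 CPM in knockout and 197.9, 181.1 and 139.5 CPM in wild-type. It averaged 177 ± 8.68 CPM over the knockout libraries and 173 ± 30.1 CPM over the wild-type libraries (SD, n = 3 each). The knockout values lay inside the wild-type range. Taken as 1 feature, the pair had a log2 change of 0.03 (SE 0.16, unadjusted p 0.850) in edgeR and 0.03 (SE 0.12, adjusted p 0.986) in DESeq2 with the block. The share of the sum assigned to mt-Nd4l was 6.47, 6.66 and 14.7% in knockout and 39.1, 31.4 and 30.1% in wild-type. DESeq2 with the block thus called Gm10222 on the counts as split and did not call the sum. The other fits (edgeR with and without the block, limma-voom with and without it, and DESeq2 without it) did not call Gm10222 on the split counts.

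**Figure D3:**
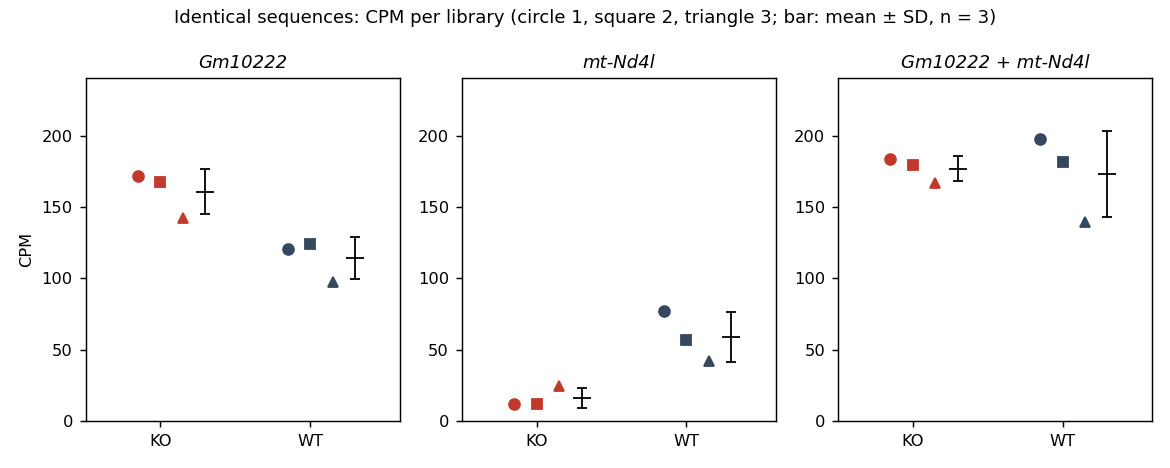
CPM per library of Gm10222, of mt-Nd4l, which has the same 294 bases, and of their sum, knockout left of wild-type (circle, square and triangle are numbers 1, 2 and 3; bars are mean ± SD, n = 3; axes from 0). Gm10222 is higher and mt-Nd4l lower in all knockout libraries, and the sums overlap.

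Sdhaf4, deposited as 1110058L19Rik (ENSMUSG00000026154, 23995939 to 24005656), is an assembly factor of respiratory complex II. It was at 11.8, 11.3 and 9.63 CPM in knockout and 7.68, 7.75 and 7.22 CPM in wild-type. The groups were apart, with the lowest knockout library above the highest wild-type library, with a mean of 10.9 ± 1.13 CPM over the knockout libraries and 7.55 ± 0.285 CPM over the wild-type libraries (SD, n = 3 each). The log2 change was 0.53 (SE 0.19) and edgeR gave an unadjusted p of 0.0262, adjusted to 0.9999. With the block the unadjusted p was 0.0113 in edgeR (adjusted p 0.393), and the adjusted p in DESeq2 was 0.205. The ratios within the numbers were 0.58, 0.52 and 0.39, and leaving out single libraries kept the edgeR log2 change between 0.46 and 0.59. It therefore did not pass, though its direction was the same in all 3 numbers.

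The other genes of complex II stood near 0. All 7 listed genes were tested and 0 passed in edgeR or DESeq2 with or without the block, or had an unadjusted p under 0.05 in these fits. Their median log2 change was 0.04, beside 0.01 over all genes, and their values ran from -0.08 to 0.11. Of Sdhaf4's transcript, 16.4% is matched by Gm26524. An untested neighbour (ENSMUSG00000096985) overlaps Sdhaf4 by 152 bases on the opposite strand. The libraries kept strand, but whether the counting used it is not stated by the sources used. Tmem70, which helps assemble the mitochondrial ATP synthase, had a log2 change of 0.14 (SE 0.15). Lactb2, a mitochondrial endoribonuclease, stood at 0.00 (SE 0.13).

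Stau2, Ube2w and Tceb1 lie together about 4 Mb to the lower side of Il17a. Stau2 (ENSMUSG00000025920, 16228674 to 16520112), a protein that binds double-stranded RNA in messenger RNAs, was at 1.62, 2.13 and 2.06 CPM in knockout and 1.62, 0.631 and 0.773 CPM in wild-type. Knockout 1 and wild-type 1 were level to 3 digits, so the ranges touched, and the genotypes differed in the numbers 2 and 3, with log2 ratios of 1.22 and 1.01. This gave a log2 change of 0.94 (SE 0.48, unadjusted p 0.0915, adjusted p 0.9999 in edgeR). Its partners Stau1, Upf1 and Upf2 had a median log2 change of -0.04, and none passed.

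Ube2w (ENSMUSG00000025939, 16540790 to 16619489), a ubiquitin-conjugating enzyme, was at 18.5, 20.7 and 19.6 CPM in knockout and 16.1, 18.0 and 17.2 CPM in wild-type. The knockout libraries lay narrowly above the wild-type libraries, and the log2 ratios within the numbers were nearly equal at 0.19, 0.20 and 0.18. Per kb of transcript the groups overlapped, at 9.97, 9.76 and 10.2 CPM per kb in knockout and 10.4, 9.18 and 9.23 in wild-type. The log2 change was 0.20 (SE 0.14, unadjusted p 0.210, adjusted p 0.9999 in edgeR). Tceb1 (ENSMUSG00000079658, 16642766 to 16656865), second in level per length, was at 84.7, 95.2 and 98.8 CPM in knockout and 90.5, 108 and 88.3 CPM in wild-type. The groups overlapped, and its log2 change of -0.04 (SE 0.14, edgeR adjusted p 0.9999) turned positive when knockout 1, wild-type 2 or pair 2 was left out. Of 7 tested genes of the elongin and VHL complexes, 3 lay above 0 with a median of -0.03, and none passed.

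Among the genes to the higher side, Ogfrl1 (ENSMUSG00000026158, 23366424 to 23383175) lies 2.64 Mb away and was at 6.29, 4.44 and 5.70 CPM in knockout and 5.05, 3.72 and 3.11 CPM in wild-type. The groups overlapped, but each knockout library lay above the wild-type library of its number. Its log2 change was 0.47 (SE 0.30, unadjusted p 0.163, adjusted p 0.9999 in edgeR). Smap1 (ENSMUSG00000026155, 23844846 to 23922317), a GTPase-activating protein for Arf6 in vesicle traffic, was at 53.1, 59.1 and 73.9 CPM in knockout and 57.3, 63.2 and 74.3 CPM in wild-type. Both genotypes followed the same order of numbers, and the log2 change was -0.06 (SE 0.17, edgeR adjusted p 0.9999). Its sequence overlaps that of B3gat2, at 0.12 (SE 0.29), on the opposite strand by 4313 bases, with 54.5% of the Smap1 transcript shared, so without strand the reads of that stretch could not be assigned. Fam135a was at 1.00 (SE 0.67), with 2.00-fold means, and overlapped between genotypes.

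Pi15 (ENSMUSG00000067780, 17601901 to 17630938), a peptidase inhibitor and the nearest tested gene after Pkhd1 on the lower side, was at 0.313, 0.307 and 0.142 CPM in knockout and 0.452, 0.158 and 0.146 CPM in wild-type. The groups overlapped at this low level, and the log2 change was 0.01 (SE 0.72, edgeR adjusted p 0.9999). Farther to the lower side, Terf1, which binds telomere repeats, had a log2 change of -0.23 (SE 0.26), and Rdh10, which makes retinal from retinol, -0.39 (SE 0.28). For both genes the ratio was below 0 in all 3 numbers. Rdh10 was the only neighbour under an unadjusted p of 0.05 in the blocked edgeR fit with a value below 0 (p 0.0499). Ncoa2, a coactivator of nuclear receptors, stood at -0.06 (SE 0.24), Tram1 at -0.03 (SE 0.15), and Ly96, the MD-2 partner of TLR4, at 0.13 (SE 0.52). Msc, a repressor of the basic helix-loop-helix family, was at 1.01 with an SE of 1.18.

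The listed partners of the neighbours gave no call in edgeR with or without the block: of 83 tested, 1 (1.2%) had an unadjusted p under 0.05 without it, beside 1.67% of all genes, and 7 (8.43%) with it, beside 9.73%. Of 12 tested genes of the endoplasmic reticulum translocon, the partners of Tram1 and Tram2, 11 had values below 0 with a median of -0.09. The 6 shelterin genes beside Terf1 had a median log2 change of -0.02 and the 5 p160 coactivator genes beside Ncoa2 0.03. The 3 tested retinoid genes beside Rdh10 had a median of -0.05 and the 4 Arf GAP genes beside Smap1 -0.09. The 6 TLR4 complex genes beside Ly96 had a median of 0.35, with 5 above 0. They ran from -1.37 (Lbp) to 0.90 (Cd14), and DESeq2 with the block called none of them. Mgst2, a glutathione transferase listed beside the untested Gsta3, was the single partner called in DESeq2 with the block, or 1.2% of the 83, beside 2.52% of all genes. It fell in knockout there (log2 change -0.51, SE 0.14, adjusted p 0.0236).

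Taken by replicate number, 9 of the 28 tested neighbours were higher in knockout in all 3 numbers, beside 16.6% of all genes tested, and 5 (17.9%) were lower in all 3, beside 16.7%. The 9 include Stau2, level in number 1 but for the last digit. They also include Gm10222, without which 8 of 27 were higher in all 3 numbers. Summed with mt-Nd4l, its ratios were -0.11, -0.01 and 0.26. The medians of the log2 ratios were 0.05, 0.10 and 0.15 for the numbers 1, 2 and 3. Ube2w, Tmem14a and Gm10222 varied least among the 9 genes, while Pkhd1 had 1.33 in number 1 against 0.24 and 0.29 in the other two.

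**Figure D4:**
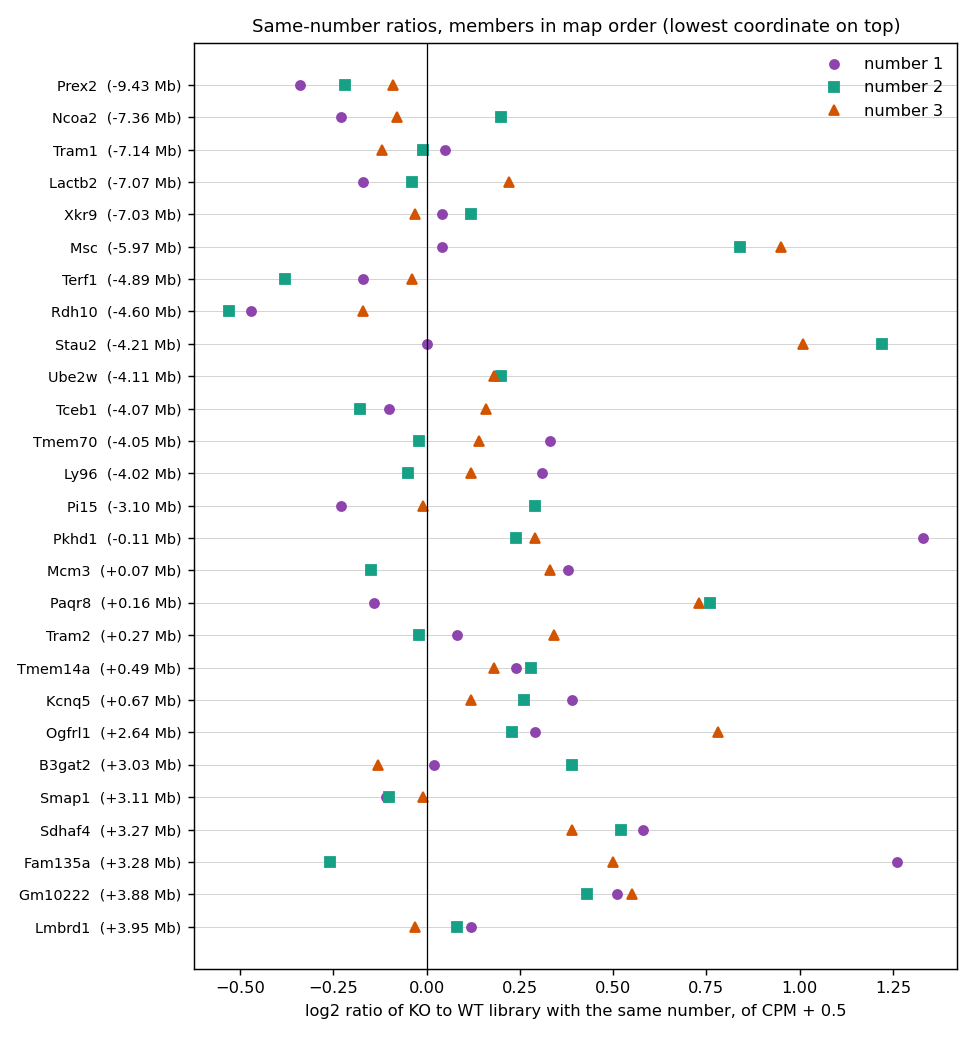
Log2 ratio of the knockout to the wild-type library of the same number (CPM + 0.5) for 27 tested neighbours, in map order from the lowest coordinate on top, with distance from Il17a in Mb. Sdhaf4, Gm10222 and Ube2w lie to the right of 0 in all 3 numbers, Rdh10 and Terf1 to the left, and Mcm3 falls on both sides.

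The deposited table splits the 66 genes into 171 transcripts, of which 44 were tested. None passed in edgeR with or without the block, with 2 at an unadjusted p under 0.05 in each, beside 1.73% of the 36508 transcripts tested without it and 4.05% with it. DESeq2 with the block called 1, the single transcript of Gm10222, beside 1.13% of all. The Ube2w transcript Ube2w-201 lay higher in knockout without overlap, at 2.76, 3.27 and 2.66 CPM in knockout and 1.78, 0.583 and 1.55 CPM in wild-type. It made up 15, 15.8 and 13.6% of the gene in knockout and 11.1, 3.25 and 8.99% in wild-type, and its log2 change of 1.16 (SE 0.54, unadjusted p 0.0717, adjusted p 0.9999 in edgeR) did not pass. A retained-intron transcript of Ncoa2, Ncoa2-003, lay lower without overlap, at 0, 0.0214 and 0.208 CPM in knockout and 0.401, 0.377 and 0.553 CPM in wild-type. At this low level its edgeR log2 change of -2.54 (SE 1.35, unadjusted p 0.106, adjusted p 0.9999) did not pass. The share of all transcripts without overlap was not computed. These transcripts share most of their bases with others of the same gene, and both were named after their values were seen.

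Per kb of transcript, Gm10222 was highest at 541 ± 53.3 CPM per kb in knockout and 384 ± 48.9 in wild-type, ahead of Tceb1 at 97.3 ± 7.67 in knockout and 100.2 ± 11.2 in wild-type. Smap1 followed at 44.4 ± 10.1 CPM per kb in knockout and 48.6 ± 3.69 in wild-type, and Mcm3 at 48.3 ± 6.91 in knockout and 42.1 ± 2.36 in wild-type (SD, n = 3 per genotype). Gm10222 stood apart from Tceb1, and Tceb1 from Smap1, over all 6 libraries, as did Tram1 from Tmem70 and Sdhaf4 from Ube2w. The other 23 neighbouring ranks overlapped, Smap1 and Mcm3 among them. Of the 28 genes, 12 averaged at least 10 CPM and 6 under 1 CPM, and the median was 2.29 CPM per kb.

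**Figure D5:**
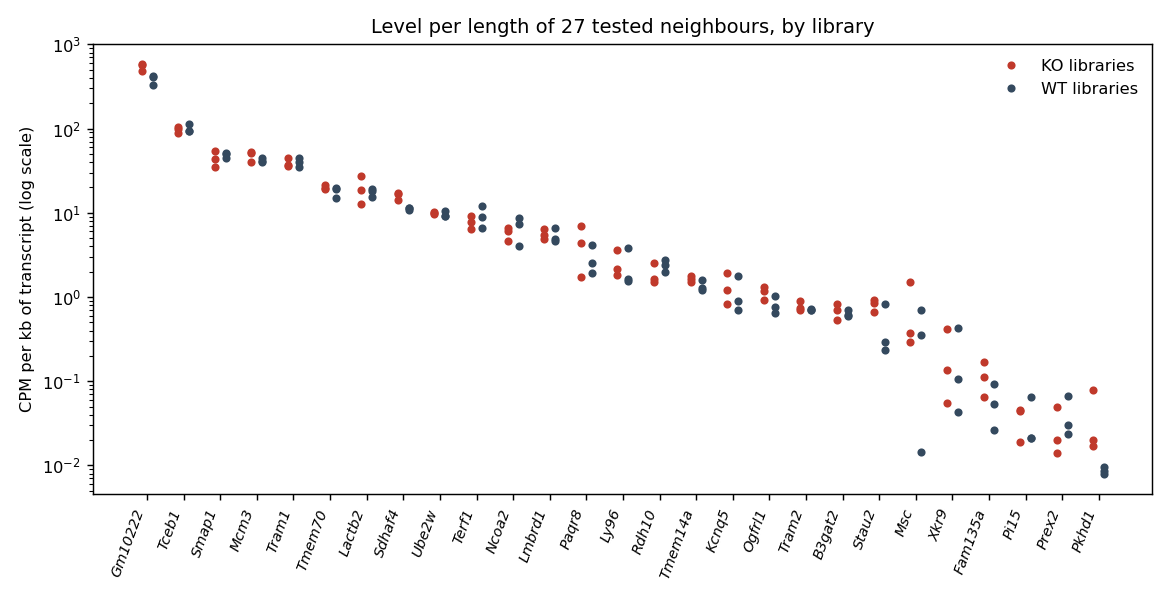
CPM per kb of transcript (log scale) in each library for 27 tested neighbours, ordered by mean level, knockout points left of wild-type points. Gm10222 is highest at 541 CPM per kb in knockout and 384 in wild-type, Mcm3 comes after Smap1, and Pkhd1 has the lowest mean over all 6 libraries.

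The 38 untested neighbours were near or at 0 in these cells. Of these, 22 had 0 counts in all 6 libraries, which allows up to 3 counts or 0.0586 to 0.0676 CPM per library, and 34 had under 10 counts in every library. They include genes of other tissues such as the collagens Col9a1 and Col19a1, the defensins Defb18 and Defb41, the transcription factors Tfap2b and Tfap2d and the synaptic gene Rims1, all at 0 in every library. The highest was Slco5a1, a member of the organic anion transporter family, with 2, 15 and 6 counts in knockout and 3, 2 and 13 counts in wild-type. Gsta3, a glutathione transferase, had 7, 5 and 2 counts in knockout and 11, 1 and 0 counts in wild-type. Khdc1a had 4, 11 and 0 counts in knockout and 0, 11 and 0 counts in wild-type. No difference was detectable for these genes at this depth.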

How the data were processed

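RNA was measured by stranded mRNA sequencing in 3 knockout and 3 wild-type T cell cultures that the labels call replicates. The authors deposited 1 estimated count per library for 93480 transcripts. They also deposited each transcript's length and, as a fraction, its GC content, which entered no test. The submitters' processing notes name Bowtie2 2.1.0, eXpress 1.3.1 and GRCm38. Neither the annotation release nor the settings of the counting are given in the sources used. Transcripts were summed per gene and the sums rounded to whole numbers. Library totals were 47335507 to 49743505, and limits of 3 counts at 0 cover counting error only.

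Knockout was compared with wild-type in edgeR 4.0.16 (R 4.3.3), with its quasi-likelihood test, TMM scaling, filterByExpr at its defaults, no block and Benjamini-Hochberg adjustment over 15121 genes at 0.05. P-values set the genotype difference against the spread between these libraries and reach no further than these cultures. DESeq2 1.42.0, limma-voom (limma 3.58.1) and fits with the replicate number as a block were alternatives. What a replicate number marks is not in the labels. Across genes, the correlation of deviations from the genotype mean was 0.602, 0.447 and 0.641 between same-numbered libraries and -0.174 to -0.465 between others. Deviations within a genotype sum to 0, so positive values between same-numbered libraries push the others below 0. By a rule of over 0.1 in every pair, equal numbers count as pairs. Log2 ratios within a number used CPM + 0.5.

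CPM per kb divides each transcript by its length. Distance runs from the nearer end of a gene to the start of Il17a. Transcripts were compared with GENCODE M21 sequences using BLAST+ 2.17.0 (at least 95% identity) and Biopython 1.88, and tables and plots were made with Python 3.11.15, pandas 2.3.3, numpy 2.4.6 and matplotlib 3.10.9. Promoters came from RefSeq (GRCm38.p6), matched by symbol. Full statistics are given for Mcm3 and the 2 tested neighbours nearest to Il17a on each side. They are also given for neighbours called in edgeR or, with the block, in edgeR or DESeq2. The 5 with the smallest p, the 3 highest per length and those whose CPM ranges did not overlap are included too. The members and gene lists were chosen with earlier results of these data known. A tested neighbour is not reported here by name, but the counts and medians over the group include it.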

Additional observations from a re-analysis of the deposited data

How the results depend on the processing

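Of 29 settings, 27 called 0 neighbours, and 1 was called by DESeq2 with the replicate block, on all libraries and without pair 2. At transcript level DESeq2 with the replicate block called 1, and edgeR called 0. The median log2 change, 0.14, was 0.16 in edgeR with the replicate block and between 0.08 and 0.21 in every setting. Leaving out single libraries moved it between 0.08 (without wild-type 2) and 0.20 (without knockout 1). Leaving out pair 2 gave 0.21 in edgeR with the replicate block, 0.19 in DESeq2 with the replicate block and 0.21 with no block, and leaving out pair 3 gave 0.19 in DESeq2 with the replicate block. The cause was not tested. Among 263 values of the 11 fully described genes under alternatives, 244 kept their direction and side of the threshold and 17 changed sign, all of genes near 0. Tceb1 ran from -0.11 to 0.06 without single libraries and, without pair 2, was 0.03 in edgeR and 0.01 in DESeq2 with the replicate block and 0.04 with no block. Pi15 ran from -0.28 to 0.73 without single libraries. It was -0.0011 in DESeq2, -0.0015 with RLE scaling and -0.01 over protein-coding transcripts only. Without pair 2 it was -0.31 in edgeR and -0.32 in DESeq2 with the replicate block, and -0.40 with no block. Smap1 ran from -0.23 to 0.03 without single libraries. The other genes kept their sign in all leave-one-out fits, with Pkhd1 at 1.08 to 2.44, Stau2 at 0.70 to 1.47, Ogfrl1 at 0.31 to 0.68, Mcm3 at 0.12 to 0.29 and Gm10222 at 0.38 to 0.56. Leaving out transcripts under 300 bases removes Gm10222. Fits without a pair (other than in edgeR with the replicate block), and those that sum or leave out Gm10222, were chosen after seeing the data. With 3 libraries per genotype and low counts for Pkhd1, Pi15 and the 38 untested genes, small differences in these were not detectable. Large differences in genes with higher counts did not pass edgeR without the block either. Its adjusted p was 0.9999 for Il17a (log2 change -8.7), Il17f (1.56) and mt-Nd4l (-1.87).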
